A study of Mus musculus with 4 samples.

Results

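The 33 genes described here carry a cell through its division cycle: D-type and E-type cyclins with their kinases, CDK inhibitors, RB and E2F, the MCM replicative helicase, the replication clamp and enzymes of nucleotide supply, and the cyclins, kinases and checkpoint proteins of mitosis. They were taken by gene symbol from a list of such genes, and all 33 were found among the 50584 gene symbols of the count files. The study sequenced polyadenylated liver RNA from DBA/2J and C57BL/6J mice, both common inbred laboratory strains, with 2 animals per strain and 1 library per animal. All mice were males of 14 weeks on chow, labelled wild type, so strain is the sole factor that the labels vary. The values are read counts per gene, given below also as CPM, the usual depth-scaled count, on TMM-scaled library sizes, and each log2 difference is DBA/2J over C57BL/6J from edgeR's quasi-likelihood test.

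Mitogen-driven D-type cyclins activate CDK4 and CDK6, which phosphorylate RB and release E2F factors, and these switch on the genes of DNA replication. Cyclin E with CDK2 then starts S phase, MCM helicase opens the origins, and cyclins A and B with CDK1 lead into mitosis. Hepatocytes of an adult liver are almost all quiescent but re-enter the cycle after injury or resection, with cyclin D1 as the best known gate.

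The libraries held between 48096706 and 52520737 counts, so a gene at 3 counts, taken here as the detection floor, lies between 0.0542 and 0.0622 CPM. Every cell cycle gene exceeded the floor in every library, with 6 counts at the lowest and 2257 at the highest, and all 33 passed the filter on low counts. Hepatocyte markers summed to between 80048 and 92433 CPM, and 0 of 6 of them were called different (1 at an unadjusted p below 0.05 in edgeR). Of all tested genes 18.2% were called different, and 35.4% had an unadjusted p below 0.05 in edgeR. The p-values rest on the spread between these 2 mice per strain, pooled over both strains and moderated by edgeR with that of other genes. In whole tissue, fewer cells of a type and less RNA per cell cannot be told apart.

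Of the 33 genes, 5 were lower in DBA/2J at an edgeR adjusted p below 0.05 (Ccnd1, Rrm2, Mcm6, Cdkn2c and Ccne1) and 1 was higher (Rb1). The 6 calls make 18.2% of the set, and 18.2% of all 15647 tested genes were called, so the set as a whole held no more calls than the background. The 5 lower calls are 15.2% of the set against 8.87% of all tested genes, and the 1 higher call is 3.03% against 9.29%. The median log2 difference was -0.12 over the set and 0.01 over all tested genes. Both libraries of DBA/2J lay below both of C57BL/6J for 14 genes (42.4%, against 31.2% of all tested genes) and above them for 9 (27.3%, against 32.5%), and the strains overlapped for the other 10. Within most role groups the called gene stood beside relatives that were not called, as the plot of all 33 log2 differences shows.

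**Figure D1:**
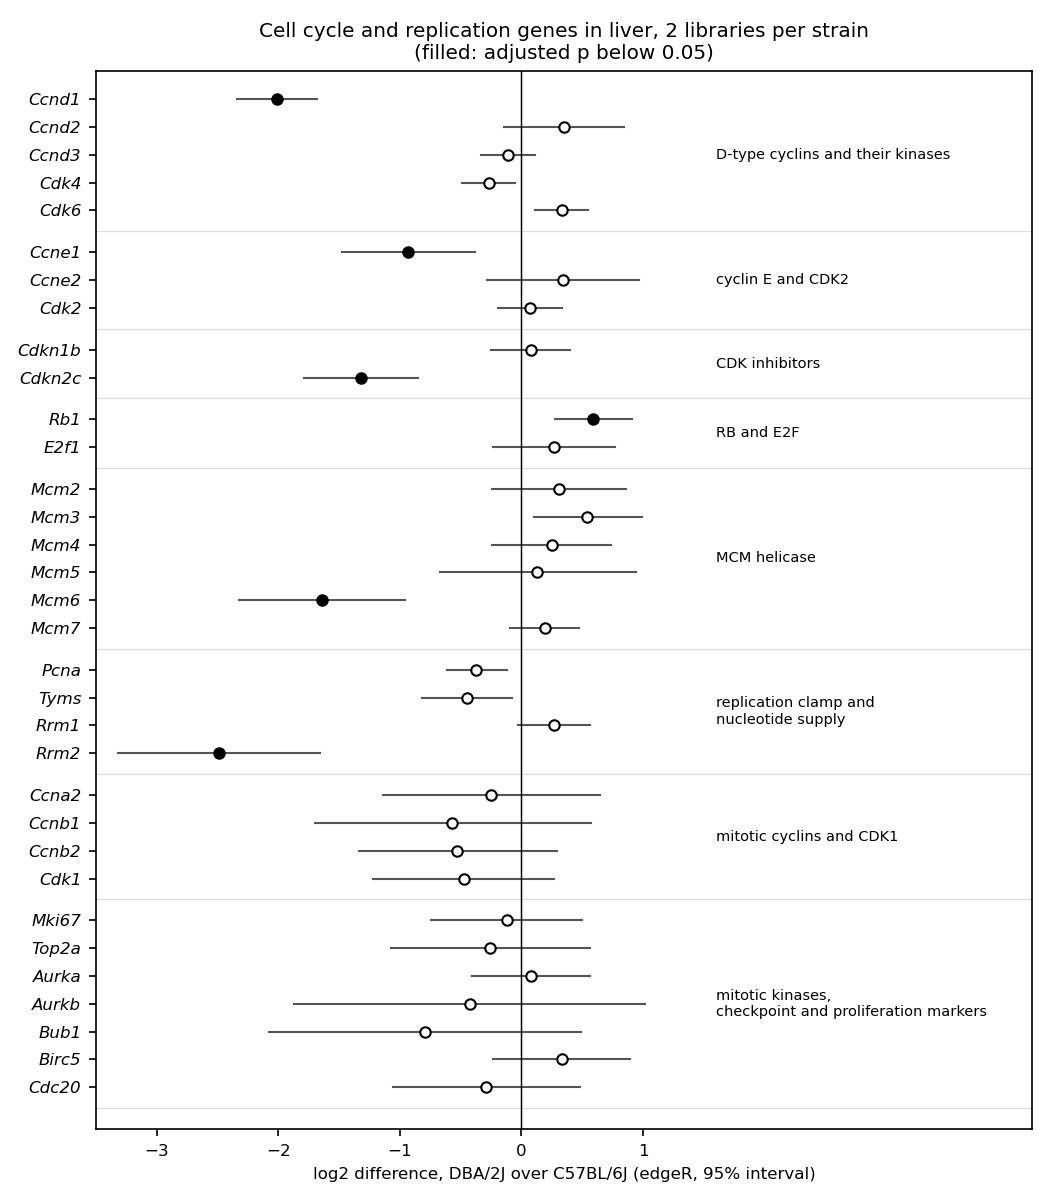
Each point is the log2 difference of 1 gene, DBA/2J over C57BL/6J, with its 95% interval from edgeR (2 libraries per strain), grouped by role; filled points have an adjusted p below 0.05. The filled points are Ccnd1, Ccne1, Cdkn2c, Mcm6 and Rrm2 to the left of 0 and Rb1 to the right, and the mitotic genes have wide intervals that all cross 0.

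Cyclin D1 had the lowest adjusted p of the set. Ccnd1 had 4.17 and 4.66 CPM in the DBA/2J libraries (201 and 258 counts) and 17.1 and 18.5 CPM in the C57BL/6J libraries (832 and 924 counts). The replicates of each strain lay close together and far from those of the other, with means of 4.42 ± 0.352 CPM for DBA/2J against 17.8 ± 1.02 CPM for C57BL/6J (SD, n = 2 each). The log2 difference was -2.01 ± 0.13 (SE), with a 95% interval of -2.34 to -1.68, a 4.03-fold lower level in DBA/2J (edgeR adjusted p = 0.00101).

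The other D-type cyclins did not pass the test. Ccnd2, at the lowest level per kilobase of its role group over all 4 libraries, had 8.27 and 11.3 CPM in DBA/2J and 8.37 and 6.99 CPM in C57BL/6J, with overlapping strains (log2 0.35 ± 0.20 (SE), edgeR adjusted p = 0.267). Ccnd3 had 32.8 and 30.9 CPM in DBA/2J and 33.4 and 35.1 CPM in C57BL/6J, a log2 difference of -0.11 with a 95% interval of -0.33 to 0.11. Within each library the 3 D-type cyclins can be set against each other per kilobase of exon. Ccnd1 made up 16.1% and 17.3% of their summed level in DBA/2J and 43.6% and 45.3% in C57BL/6J, while Ccnd3 made up 67.9% and 61.7% against 45.8% and 46.1%. By this measure cyclin D3 was the main D-type transcript in DBA/2J, and cyclins D1 and D3 were near parity in C57BL/6J. The measure depends on the annotated exon lengths, 4709 bases for Ccnd1 and 8775 for Ccnd3, which need not be those of the transcripts present. Of these exon bases, 23.4% in Ccnd1 and 4.11% in Ccnd3 are shared with other symbols, where reads may be left out. The shares were not corrected for this, so the near parity in C57BL/6J is uncertain. In CPM, without length, the ratio of Ccnd1 to Ccnd3 was 0.127 and 0.151 in DBA/2J and 0.511 and 0.527 in C57BL/6J. An exact two-sided permutation test of the Ccnd1 to Ccnd3 ratio gave p = 0.333, the smallest that 2 against 2 libraries allow.

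The kinases that D-type cyclins bind moved little. Cdk4, the member with the highest level per kilobase in both strains, had 28.1 and 29 CPM in DBA/2J and 33.2 and 35.8 CPM in C57BL/6J (log2 -0.27 ± 0.09 (SE), edgeR adjusted p = 0.0896). Cdk6 had 44.6 and 40.8 CPM in DBA/2J and 33.2 and 34.7 CPM in C57BL/6J (log2 0.33 ± 0.09 (SE), edgeR adjusted p = 0.0569). For both kinases the strains did not overlap, in opposite directions, and neither difference passed the threshold. Cdk4 passed it without C57BL/6J replicate 1 (log2 -0.33, edgeR adjusted p = 0.0368), and Cdk6 without C57BL/6J replicate 2 (log2 0.36, edgeR adjusted p = 0.0289) or with plain library totals (log2 0.41, edgeR adjusted p = 0.0291).

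**Figure D2:**
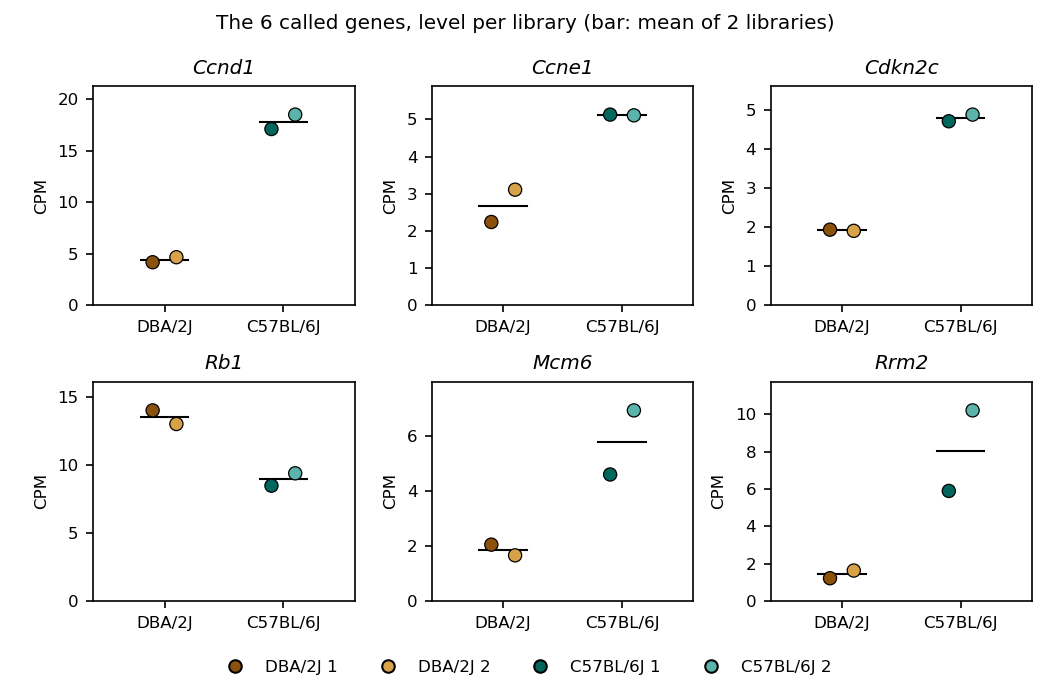
Level in CPM (axis from 0) of the 6 called genes in each of the 4 libraries, with a bar at the mean of each strain. Ccnd1 and Cdkn2c have tight replicates in both strains, and the C57BL/6J libraries lie far apart for Rrm2 (5.89 and 10.2 CPM) and Mcm6 (4.6 and 6.93 CPM).

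Of the E-type cyclins, which bind CDK2 at the entry to S phase, Ccne1 was lower in DBA/2J. Its level was 2.24 and 3.11 CPM in DBA/2J (2.67 ± 0.616 CPM, SD, n = 2) and 5.13 and 5.11 CPM in C57BL/6J (5.12 ± 0.0143 CPM, SD, n = 2). The log2 difference was -0.93 ± 0.22 (SE), a 1.91-fold lower level with an edgeR adjusted p of 0.0402. This call lay near the threshold and was lost without DBA/2J replicate 1 (edgeR adjusted p = 0.276) or replicate 2 (edgeR adjusted p = 0.14), with plain library totals (edgeR adjusted p = 0.059) and without the filter on low counts (edgeR adjusted p = 0.0686). Ccne2 pointed the other way, with 1.78 and 1.92 CPM in DBA/2J and 1.29 and 1.62 CPM in C57BL/6J, and did not pass (log2 0.34 ± 0.25 (SE), edgeR adjusted p = 0.383). The ratio of Ccne1 to Ccne2 counts was 1.26 and 1.62 in DBA/2J and 3.97 and 3.15 in C57BL/6J. Cdk2, their kinase, had 17 and 17.8 CPM in DBA/2J and 17.2 and 16 CPM in C57BL/6J, a log2 difference of 0.07 with a 95% interval of -0.19 to 0.33.

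The CDK inhibitors of the set behaved unequally. Cdkn2c encodes p18INK4c, which blocks CDK4 and CDK6, and it had 1.93 and 1.9 CPM in DBA/2J (1.91 ± 0.021 CPM, SD, n = 2) and 4.7 and 4.87 CPM in C57BL/6J (4.78 ± 0.12 CPM, SD, n = 2). The strains were well apart relative to their replicates, at a log2 difference of -1.32 ± 0.19 (SE), a 2.5-fold lower level in DBA/2J (edgeR adjusted p = 0.0103). Without DBA/2J replicate 1 or 2, which leaves a lone DBA/2J library that is assumed to vary like the C57BL/6J libraries, the log2 difference was -1.35 or -1.31 and the edgeR adjusted p 0.139 or 0.13. Cdkn1b encodes p27KIP1, an inhibitor of cyclin-CDK2 complexes, and had 27.5 and 32 CPM in DBA/2J and 25.6 and 30.8 CPM in C57BL/6J. Its strains overlapped (log2 0.08, 95% interval -0.25 to 0.40), and the sign turned to -0.04 without DBA/2J replicate 2 and to -0.06 without C57BL/6J replicate 1. The transcripts of cyclin D1, an activator of CDK4 and CDK6, and of p18INK4c, an inhibitor of the same kinases, were both called lower in DBA/2J. Protein was not measured.

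RB, the pocket protein that holds E2F factors silent, was the member called higher. Rb1 had 14 and 13 CPM in DBA/2J (13.5 ± 0.701 CPM, SD, n = 2) and 8.47 and 9.38 CPM in C57BL/6J (8.93 ± 0.639 CPM, SD, n = 2). The log2 difference was 0.59 ± 0.13 (SE), a 1.51-fold higher level in DBA/2J (edgeR adjusted p = 0.0298), and it was lost without DBA/2J replicate 1 (edgeR adjusted p = 0.277) or replicate 2 (edgeR adjusted p = 0.196) and without the filter (edgeR adjusted p = 0.0577). E2f1, an activating E2F factor, had 5.39 and 5.71 CPM in DBA/2J and 3.92 and 5.29 CPM in C57BL/6J and did not pass (log2 0.27 ± 0.20 (SE), edgeR adjusted p = 0.393).

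MCM2 to MCM7 form a ring of 6 different subunits, the helicase that unwinds DNA ahead of the fork. Of these subunits only Mcm6 was called, and no other subunit was called under any of the 10 other settings tried. Mcm6 had 2.05 and 1.66 CPM in DBA/2J (1.86 ± 0.275 CPM, SD, n = 2) and 4.6 and 6.93 CPM in C57BL/6J (5.76 ± 1.65 CPM, SD, n = 2). The C57BL/6J libraries differed from each other but both lay above DBA/2J, at a log2 difference of -1.64 ± 0.27 (SE), a 3.11-fold lower level in DBA/2J (edgeR adjusted p = 0.0155). Without DBA/2J replicate 1 or 2 the edgeR adjusted p was 0.135 or 0.154, and without C57BL/6J replicate 1 or 2 the call held.

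The other 5 subunits had log2 differences between 0.13 and 0.54, all above 0 and none called. Mcm7, the highest of the 6 per kilobase, had 15.4 and 14.1 CPM in DBA/2J and 12.8 and 13.1 CPM in C57BL/6J (log2 0.19 ± 0.11 (SE), edgeR adjusted p = 0.287). Mcm2, the lowest of the 6 per kilobase over all 4 libraries (in DBA/2J Mcm6 was lower), had 4.89 and 3.63 CPM in DBA/2J and 3.26 and 3.61 CPM in C57BL/6J (log2 0.31 ± 0.22 (SE), edgeR adjusted p = 0.37). Mcm3 had the largest difference of these 5, at 6.57 and 5.5 CPM in DBA/2J against 3.94 and 4.33 CPM in C57BL/6J (log2 0.54 ± 0.18 (SE), edgeR adjusted p = 0.0911). Mcm5 changed sign to -0.14 without DBA/2J replicate 1 and to -0.21 without C57BL/6J replicate 1. The ratio of Mcm6 to the mean of the other 5 subunits, in CPM, was 0.274 and 0.268 in DBA/2J and 0.853 and 1.16 in C57BL/6J. The exact two-sided permutation test of that ratio gave p = 0.333, again the smallest possible with 2 libraries per strain.

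**Figure D3:**
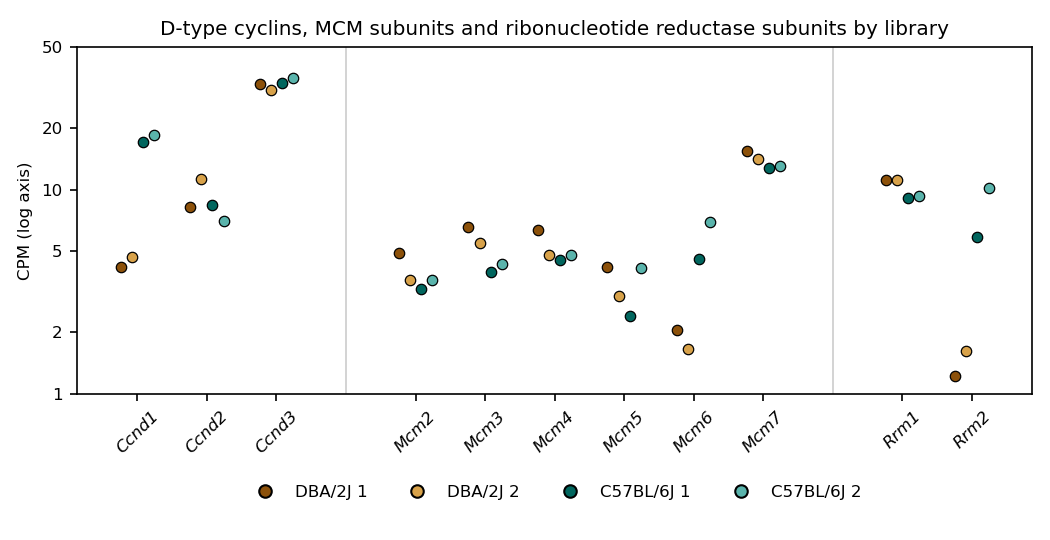
Level in CPM (log axis) of the D-type cyclins, the 6 MCM subunits and both ribonucleotide reductase subunits in the 4 libraries. Ccnd1, Mcm6 and Rrm2 separate the strains, with DBA/2J low, and the points of their relatives lie closer together.

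Upstream sequences of Mcm6 and Mcm5 are shown because these helicase subunits both carry E2F-like motifs there while only Mcm6 was called. Each run is the 250 bases before the RefSeq transcription start in GRCm38.p6, 5′ to 3′ on the strand of the gene, and capitals mark TTTNNCGC on either strand. Mcm6 lies at chr1:128359706-128359955 on the minus strand and Mcm5 at chr8:75109259-75109508 on the plus strand.
Mcm6: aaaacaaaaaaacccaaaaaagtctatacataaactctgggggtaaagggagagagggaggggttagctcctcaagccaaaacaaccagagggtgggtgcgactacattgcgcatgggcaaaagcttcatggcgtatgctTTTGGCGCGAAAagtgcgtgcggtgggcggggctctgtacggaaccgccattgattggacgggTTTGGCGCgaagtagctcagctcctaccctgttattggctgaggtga
Mcm5: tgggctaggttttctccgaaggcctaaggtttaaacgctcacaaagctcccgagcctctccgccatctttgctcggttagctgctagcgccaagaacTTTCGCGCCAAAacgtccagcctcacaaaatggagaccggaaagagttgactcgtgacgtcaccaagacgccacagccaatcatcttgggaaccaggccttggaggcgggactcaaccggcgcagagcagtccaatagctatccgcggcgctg
In Mcm6 the matches begin at positions -110, -106 and -47 from the start, the first and second of them overlapping on opposite strands, and in Mcm5 an overlapping pair begins at -153 and -149. Windows from 250 bases before to 50 after the start were given for 26 of the 33 genes (29 windows), and 8 of these windows (27.6%) held the motif against 5.17% of all 32851 windows. Besides Mcm5 and Mcm6 these were windows of Cdk1, Cdk2, Cdk6, Mcm3, Mcm7 and Tyms, and of these 8 genes only Mcm6 was called. The windows are reference sequence, and DBA/2J alleles were not examined.

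Rrm2 had the largest difference of the set. It encodes the regulatory subunit of ribonucleotide reductase, which makes deoxynucleotides, and is the subunit whose supply usually follows S phase. Its level was 1.22 and 1.63 CPM in DBA/2J (59 and 90 counts, 1.42 ± 0.286 CPM, SD, n = 2) and 5.89 and 10.2 CPM in C57BL/6J (287 and 509 counts, 8.04 ± 3.05 CPM, SD, n = 2). The C57BL/6J libraries were spread, and the lower of them was still above both DBA/2J libraries. The log2 difference was -2.49 ± 0.33 (SE) with a 95% interval of -3.32 to -1.66, a 5.62-fold lower level in DBA/2J (edgeR adjusted p = 0.00869). It ranged from -2.83 without C57BL/6J replicate 1 to -2.04 without C57BL/6J replicate 2, and the call was lost without DBA/2J replicate 1 (edgeR adjusted p = 0.114) or replicate 2 (edgeR adjusted p = 0.0896).

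The catalytic subunit of the same enzyme did not follow it. Rrm1 had 11.1 and 11.1 CPM in DBA/2J and 9.07 and 9.36 CPM in C57BL/6J, so DBA/2J lay slightly above (log2 0.27 ± 0.12 (SE), edgeR adjusted p = 0.173). The ratio of Rrm2 to Rrm1 in CPM was 0.11 and 0.147 in DBA/2J and 0.649 and 1.09 in C57BL/6J. Pcna, the sliding clamp of the DNA polymerases, had 17.2 and 16.4 CPM in DBA/2J and 21.2 and 22 CPM in C57BL/6J and came close to the threshold (log2 -0.37 ± 0.10 (SE), edgeR adjusted p = 0.0545). It passed without C57BL/6J replicate 1 (log2 -0.40, edgeR adjusted p = 0.0311) or replicate 2 (log2 -0.34, edgeR adjusted p = 0.0475). Tyms, thymidylate synthase, had 5.91 and 5.44 CPM in DBA/2J and 7.47 and 8.03 CPM in C57BL/6J (log2 -0.45 ± 0.15 (SE), edgeR adjusted p = 0.0898).

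The upstream windows of the reductase genes are shown with their CCAAT boxes in capitals, a motif common in promoters of cell cycle genes, since the subunits differed in their strain difference. Rrm2 lies at chr12:24708004-24708253 and Rrm1 at chr7:102441445-102441694, both on the plus strand of GRCm38.p6, and only matches on the gene's strand occurred.
Rrm2: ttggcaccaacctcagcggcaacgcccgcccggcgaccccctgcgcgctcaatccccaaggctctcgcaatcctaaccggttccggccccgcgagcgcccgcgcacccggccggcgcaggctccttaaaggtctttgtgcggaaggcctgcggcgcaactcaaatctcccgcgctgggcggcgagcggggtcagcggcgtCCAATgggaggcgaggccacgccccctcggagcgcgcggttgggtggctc
Rrm1: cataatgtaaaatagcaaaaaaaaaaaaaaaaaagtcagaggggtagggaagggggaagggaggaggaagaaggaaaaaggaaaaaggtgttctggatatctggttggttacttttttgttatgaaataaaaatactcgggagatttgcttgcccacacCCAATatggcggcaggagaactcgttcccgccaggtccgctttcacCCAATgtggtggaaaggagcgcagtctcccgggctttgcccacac
The Rrm2 match begins at -50 and the Rrm1 matches at -91 and -45. CCAAT on either strand was found in 21 of the 29 windows of the set (72.4%) and in 37.4% of all windows. Neither reductase window held TTTNNCGC.

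None of the 11 mitotic genes was called, and 0 of the 11 had an unadjusted p below 0.05 in edgeR, with 0 called by DESeq2. Of all tested genes 18.2% were called by edgeR, and 35.4% had an unadjusted p below 0.05. The levels of the mitotic genes were low. Ccnb2, the highest per kilobase of the mitotic cyclins and CDK1, had 50 and 36 counts in DBA/2J and 59 and 60 in C57BL/6J (log2 -0.53 ± 0.33 (SE), edgeR adjusted p = 0.307). Ccnb1, the lowest of them, had 11 and 8 counts in DBA/2J and 13 and 14 in C57BL/6J (log2 -0.57, 95% interval -1.70 to 0.57). All 4 genes of mitotic cyclins and CDK1 had log2 differences below 0, from -0.57 to -0.25, and Ccna2 turned to 0.11 without DBA/2J replicate 2. Cdk1, the mitotic kinase itself, had 74 and 55 counts in DBA/2J and 89 and 83 in C57BL/6J.

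Among mitotic kinases, checkpoint genes and proliferation markers, log2 differences ran from -0.79 to 0.33. Mki67, the source of the Ki-67 antigen used to count cycling cells, had 102 and 94 counts in DBA/2J and 110 and 94 in C57BL/6J. Its strains overlapped, and the 95% interval of the log2 difference was -0.74 to 0.50. Aurka, a spindle pole kinase and the highest of this group per kilobase, had 195 and 186 counts in DBA/2J and 166 and 180 in C57BL/6J (log2 0.08, 95% interval -0.41 to 0.56). Bub1, a spindle checkpoint kinase at the lowest level per kilobase of the whole set, had 9 and 6 counts in DBA/2J and 10 and 15 in C57BL/6J (log2 -0.79, 95% interval -2.08 to 0.49). For the remaining genes the edgeR adjusted p was at least 0.35: Top2a (topoisomerase IIα), Aurkb (a kinase of the chromosomal passenger complex), Birc5 (survivin, of the same complex) and Cdc20 (an activator of the anaphase-promoting complex). The summed level of the 7 genes was 10.9 and 10.1 CPM in DBA/2J and 11.2 and 9.74 CPM in C57BL/6J.

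The window of Cdk1 illustrates a motif of mitotic genes, the cell cycle homology region TTTGAA, shown in capitals. It lies at chr10:69352913-69353162 on the minus strand of GRCm38.p6.
Cdk1: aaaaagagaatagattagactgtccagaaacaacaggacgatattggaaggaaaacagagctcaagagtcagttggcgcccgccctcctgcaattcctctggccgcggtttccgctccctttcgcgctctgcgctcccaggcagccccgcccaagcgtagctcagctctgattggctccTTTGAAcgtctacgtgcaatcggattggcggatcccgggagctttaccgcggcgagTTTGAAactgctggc
The matches begin at -71 and -15. TTTGAA on either strand was found in 7 of the 29 windows of the set (24.1%) and in 17.9% of all windows, and 6 of the 7 belong to mitotic genes (Aurka, Ccnb2, Cdc20, Cdk1, Mki67 and Top2a), the other to Mcm2.

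Ordered by mean CPM per kilobase of exon, Cdk4, Pcna, Cdkn1b and Ccnd3 took places 1 to 4 in both strains. In C57BL/6J Ccnd1 followed at place 5 (3.78 CPM per kilobase, beside 3.91 for Ccnd3, with Ccnd3 and Mcm7 as its neighbours in the order), and in DBA/2J it stood at place 16 (0.938 CPM per kilobase). Rrm2 stood at place 7 in C57BL/6J and 24 in DBA/2J, Cdkn2c at 11 and 20, and Mcm6 at 17 and 25. The mitotic genes Ccna2, Mki67, Top2a, Aurkb, Ccnb1 and Bub1 filled places 28 to 33 in the same order in both strains. The lowest, Bub1, had 0.0339 CPM per kilobase in DBA/2J and 0.0581 in C57BL/6J, and Cdk4 had 8.8 and 10.6.

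Of the 6 called genes, Ccnd1 alone kept its call under all 10 other settings tried, with log2 differences from -2.10 to -1.93 and a highest edgeR adjusted p of 0.0337. The other 5 kept their direction under all 10, and each lost its call when either DBA/2J library was left out. When a DBA/2J library was left out, far fewer genes of the whole table were called, 292 or 313 against 2842 with all libraries.

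**Figure D4:**
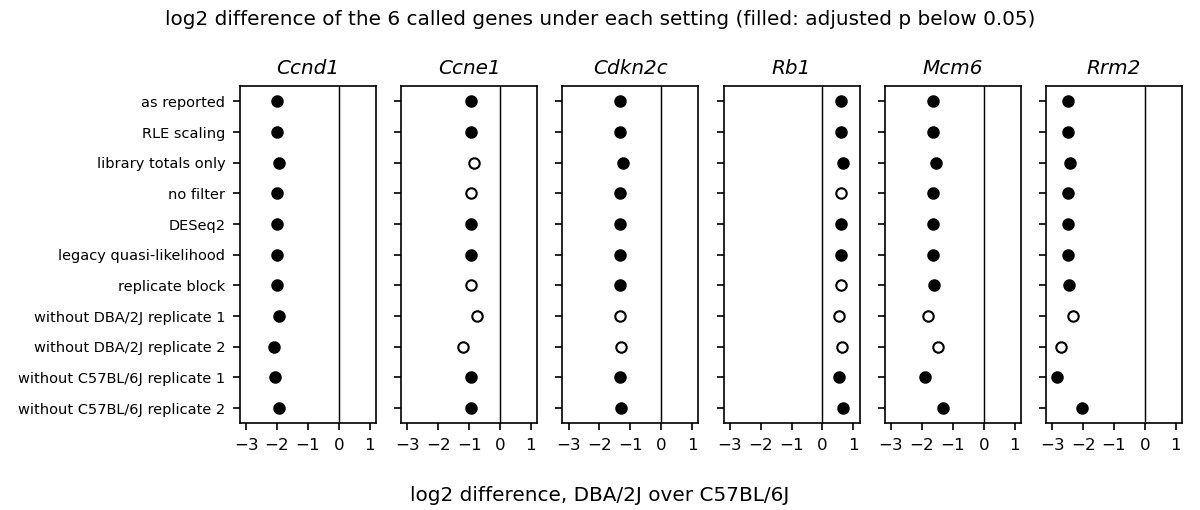
Log2 difference, DBA/2J over C57BL/6J, of the 6 called genes under the reported fit and 10 other settings; filled points have an adjusted p below 0.05. Every point keeps its side of 0, and the open points gather in the settings without a DBA/2J library, where Ccnd1 stays filled.

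The called genes lie on different chromosomes or far apart. In GRCm38, Ccnd1 spans chr7:144929931-144939925 and Ccne1 chr7:38097984-38107534, Cdkn2c spans chr4:109660876-109667189, Rb1 chr14:73183673-73325822 and Mcm6 chr1:128331590-128359664, all on the minus strand, and Rrm2 spans chr12:24708241-24714146 on the plus strand. Counts cover all annotated exons. Among tested genes that start within 500 kb, 0 of 7 near Ccnd1, 0 of 4 near Ccne1 and 0 of 8 near Mcm6 were called by edgeR. Near Rrm2, Gm6969 (log2 4.72) and Taf1b (log2 0.93) were higher in DBA/2J and Grhl1 (log2 -2.07) lower, 3 of 7 in all. Near Cdkn2c, Ttc39a (log2 2.85) and Ttc39aos1 (log2 3.78) were higher and 9630013D21Rik (log2 -0.75) lower, 3 of 6 in all. Near Rb1, Rcbtb2 (log2 -1.05) and Lpar6 (log2 -0.64) were lower, 2 of 6 in all. Over the 6 loci, 8 of 38 neighbours were called, 21.1% beside the 18.2% of all genes.

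Reads of a gene and of an opposite-strand neighbour cannot be told apart where their exons overlap, since the count files record no use of strand. They also record no option for overlapping reads, and by default featureCounts leaves out reads that overlap exons of several genes. Reads of either gene may thus be missing from the counts where exons are shared. No exon of Mcm6, Rrm2, Cdkn2c or Ccne1 overlaps another symbol. In Ccnd1, 23.4% of exon bases are shared with Oraov1 on the opposite strand, which had 634 and 784 counts in DBA/2J and 611 and 720 in C57BL/6J and was not called (log2 0.02, edgeR adjusted p = 0.929). In Rb1, 14.9% are shared with Lpar6 and Rcbtb2, opposite-strand genes that were called lower in DBA/2J (log2 -0.64 and -1.05) while Rb1 was higher. Of the 33 genes, 12 share exon bases with another symbol, 6 of them over 10%. In Cdk4, which was not called, 19.7% are shared with Tspan31 on the opposite strand. Tspan31 had 67.8 CPM per kilobase over all libraries against 9.71 for Cdk4, and both had a log2 difference of -0.27. The effect of this overlap on the Cdk4 counts was not tested. Stretches of at least 100 bases at 95% identity or more were found in other annotated genes for 13 of the 33. For Rrm2 the longest such stretch has 419 bases and lies in Gm48445 or Gm48455. Neither symbol is among those of the count files, so the levels of these copies could not be examined. For Mcm6 the longest has 182 bases in Gm15654, which had 0 counts in every library. No option for multi-mapped reads is recorded, so reads that match both places may be left out. The 0 counts therefore cannot show whether Mcm6 counts are affected. Ccnb2-ps, a symbol that marks a copy of Ccnb2, had 29 and 30 counts in DBA/2J and 54 and 50 in C57BL/6J (log2 -0.88, edgeR adjusted p = 0.0951), and the search found no such stretch for Ccnb2. The longest stretches were 2157 bases for Mcm7, in Gm5487, and 1294 bases for Ccnb1, in 1 of 4 genes. Pcna had a stretch of 781 bases in Pcna-ps2, Tyms up to 677 bases in 32 genes and Cdk6 up to 233 bases in 74 genes. Counts of the 13 genes are uncertain where reads also match another gene. Pcna-ps1, Pcna-ps2 and Ccnd3-ps had at most 4 counts in any library, with the same limit on reads that match both places.

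Beyond the 33 genes, 120 other cell cycle and replication genes were examined in 6 lists, of which 115 passed the filter. Of these 115, 8 (6.96%) were higher and 5 (4.35%) lower in DBA/2J, 11.3% called in all beside 18.2% of all tested genes, with a median log2 difference of 0.04. The called genes other than Pttg1 lost their calls without either DBA/2J library, and without the filter only Pttg1, Anapc13, E2f2, Tk1 and Pold3 were called.

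The largest called difference in these lists was that of Pttg1, securin, which restrains separase until anaphase. Pttg1 had 122 and 123 counts in DBA/2J and 1437 and 1531 in C57BL/6J, a clear separation with tight replicates (log2 -3.66 ± 0.13 (SE), 12.7-fold lower in DBA/2J, edgeR adjusted p = 0.000153), and kept its call under all 10 other settings. The other 22 tested genes of the spindle, kinetochore and cytokinesis list were not called, and its median log2 difference was -0.06. Calls made 4.35% of that list, against 18.2% of all tested genes.

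Among G1 and RB-E2F regulators 3 of 16 were higher (18.8%) and 0 lower, against 9.29% higher and 8.87% lower of all tested genes. E2f2, an activating E2F factor, had 243 and 229 counts in DBA/2J and 62 and 90 in C57BL/6J (log2 1.57 ± 0.26 (SE), edgeR adjusted p = 0.0145). Tfdp2, a dimer partner of E2F factors, and E2f6, a repressive E2F factor, were higher by log2 0.60 and 0.55 (edgeR adjusted p = 0.0202 and 0.0291).

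DNA polymerase and fork genes were called higher in 3 of 22 cases (13.6%) and lower in 0, with a median log2 difference of 0.26. All tested genes gave 9.29% higher, 8.87% lower and a median of 0.01. Tk1, thymidine kinase of the salvage pathway, had 2192 and 2784 counts in DBA/2J and 1295 and 1548 in C57BL/6J (log2 0.73 ± 0.11 (SE), edgeR adjusted p = 0.0122). Pold3, a subunit of DNA polymerase δ, and Rfc1, the large subunit of the clamp loader, had log2 differences of 0.67 and 0.37 (edgeR adjusted p = 0.0207 and 0.0492). The Rfc1 call was also lost with RLE scaling (edgeR adjusted p = 0.0512), without the filter (0.109) and without C57BL/6J replicate 1 (0.0595). Tk1 and Rrm2, both enzymes of deoxynucleotide supply, thus differed between the strains in opposite directions.

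In the licensing and origin firing list 0 of 17 were called in the edgeR fit, with 2 (11.8%) at an unadjusted p below 0.05. The shares of all tested genes were 18.2% called and 35.4% at an unadjusted p below 0.05. Among CDK-activating kinase and anaphase-promoting complex genes 1 of 19 was higher (5.26%) and 3 were lower (15.8%), against 9.29% and 8.87% of all tested genes. The higher gene was Anapc1 (log2 0.43, edgeR adjusted p = 0.0329). The lower genes were Anapc13 (log2 -0.65, edgeR adjusted p = 0.0103), Cdc26 (log2 -0.56, edgeR adjusted p = 0.0278) and Cks1b (log2 -0.71, edgeR adjusted p = 0.0353). Anapc1, Anapc13 and Cdc26 are subunits of the complex, and Cks1b binds CDKs. Of the remaining CDK inhibitors, checkpoint genes and phosphatases, 1 of 18 was higher (5.56%), the DNA damage kinase Atm (log2 0.63, edgeR adjusted p = 0.0467), and 1 was lower (5.56%), the checkpoint kinase Chek1 (log2 -1.25, edgeR adjusted p = 0.0398). Chek1 lost its call with library totals (edgeR adjusted p = 0.0502), without the filter (0.0665) and without C57BL/6J replicate 2 (0.0539), and Atm with RLE scaling (edgeR adjusted p = 0.0505). The 5 genes that did not pass the filter were Orc1, Ndc80, Cdkn2a, Cdc25c and Ccnb3, and Ccnb3 had 0 counts in all 4 libraries.

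**Figure D5:**
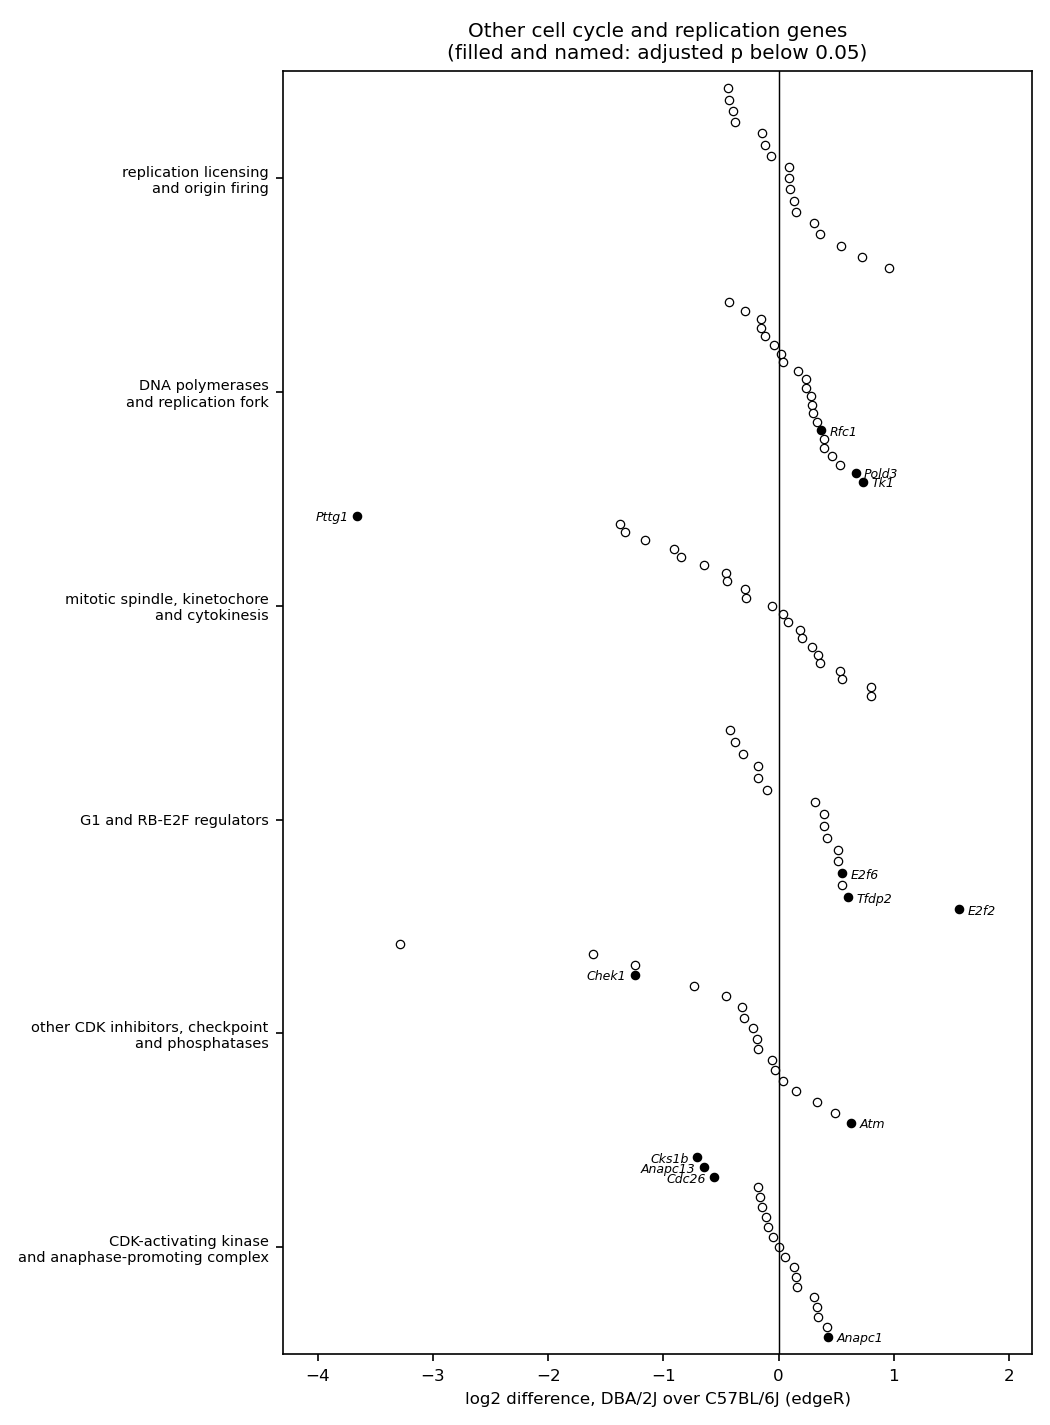
Log2 difference, DBA/2J over C57BL/6J, of the 115 tested genes of the 6 other lists, each point a gene, ordered by value within its list; filled and named points have an edgeR adjusted p below 0.05. Pttg1 lies far to the left at -3.66 and E2f2 to the right at 1.57, and most other points lie within 1 unit of 0.

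Markers of other liver cells were summed in the same libraries, in CPM. Cholangiocyte markers gave 24.1 and 24.7 in DBA/2J and 76.8 and 50 in C57BL/6J, and most of this difference was Spp1, the called gene among 6 (log2 -1.86, edgeR adjusted p = 0.00474). The other 5 summed to 10.5 and 10.2 in DBA/2J and 15 and 9.52 in C57BL/6J, with overlapping strains, and Krt19 and Krt7 had positive log2 differences (0.56 and 0.41) that did not pass. Erythroid markers gave 320 and 287 in DBA/2J and 152 and 191 in C57BL/6J, and 60.8 and 66.3 against 43 and 47.6 without Alas2, the marker with the most counts. Of the 5 erythroid markers Tfrc, Alas2 and Epor were higher (log2 0.70, 0.93 and 1.06), and Klf1 and Hbb-bt were not called (log2 -0.05 and -0.31).
Stellate cell markers gave 187 and 235 against 147 and 103, with Reln called of 6 (log2 1.30, edgeR adjusted p = 0.00453), and sinusoidal endothelium 132 and 154 against 138 and 115, with Stab2 higher (log2 0.40) and Lyve1 lower (log2 -1.16). Kupffer cell and macrophage markers gave 104 and 111 against 117 and 94.6, with Marco lower (log2 -2.97, and -2.05 without C57BL/6J replicate 1). Neutrophil markers gave 1.8 and 2.39 in DBA/2J and 11.7 and 1.96 in C57BL/6J, high in C57BL/6J replicate 1 alone. In that library Retnlg had 38 counts against 0 or 1 in the others, Cxcr2 had 0 counts in C57BL/6J replicate 2 and Camp 0 in DBA/2J replicate 2. T and NK cell markers stayed between 0.684 and 1.93 and B and plasma cell markers between 1.88 and 4.45. None of these marker calls held when DBA/2J replicate 1 or 2 was left out, and those of Epor, Stab2 and Marco were also lost without the filter (edgeR adjusted p = 0.0583, 0.0967 and 0.0676). The Epor call was lost as well without C57BL/6J replicate 1 (edgeR adjusted p = 0.0653), with DESeq2 (adjusted p = 0.0577) and with edgeR's older quasi-likelihood fit (adjusted p = 0.0501). The part of these cell types in the cell cycle differences was not tested.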

How the data were processed

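Per the labels' protocols, liver RNA was captured by poly(A) and sequenced as 100 nucleotide single-end reads. The submitters' processing notes name STAR 2.4.0g1, featureCounts 1.5.2 and GRCm38 (mm10), and the deposited files hold raw read counts per gene symbol, with exon coordinates and lengths, made with featureCounts 2.0.1 per the file headers. The headers record a paired-end option and no option for strand, multi-mapped or overlapping reads. GRCm38 is a C57BL/6J sequence, and its effect on DBA/2J reads was not tested. From the counts, genes were kept by filterByExpr (minimum count 10), scaled by TMM and tested with edgeR 4.0.16 (quasi-likelihood, R 4.3.3), with Benjamini-Hochberg adjustment over all 15647 tested genes; standard errors are the log2 difference over the square root of F. Groups and replicate numbers came from the labels. No row lacked a gene name. The code was tested on simulated counts. Other settings were RLE scaling, plain library totals, no filter, DESeq2 1.42.0, edgeR's older quasi-likelihood fit, a replicate block and leaving out each library.

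The genes and lists were chosen with earlier results of these data known. Values are given in full for genes called, or with non-overlapping strains and a log2 size of at least 1, or highest or lowest per kilobase in their role group; among the other lists for the called genes with the 3 lowest adjusted p. Ccnd3, Cdk6, Mcm3, Mcm5, Tyms, Mki67, Cdk1 and Cks1b and the promoters printed were chosen after values were seen. Promoters are RefSeq's (GRCm38.p6), with none used for Aurkb, Ccna2, Ccnd1, Ccnd2, Ccne2, Mcm4 and Rb1. Near-identical stretches were sought in GENCODE M21 transcripts. A marker gene of the erythroid list is not reported here.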

Additional observations from a re-analysis of the deposited data

How the results depend on the processing

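Of 330 values (33 genes under 10 other settings), 300 kept their direction and their side of the threshold, 15 kept the direction and lost the call, 5 gained a call and 10 changed sign, all 10 in genes that were never called. Leaving out each library in turn, the log2 difference ran from -0.06 to 0.21 for Cdkn1b, -0.21 to 0.57 for Mcm5, -0.71 to 0.11 for Ccna2, -0.30 to 0.03 for Mki67, -0.56 to 0.12 for Top2a, -0.08 to 0.20 for Aurka and -0.98 to 0.47 for Aurkb. Genes of the set called higher and lower numbered 1 and 5 with all libraries, 0 to 2 and 1 to 7 when a library was left out, 2 and 4 with plain library totals, and 0 and 4 without the filter. The other lists gave 8 higher and 5 lower, against 0 to 17 and 1 to 9 when a library was left out, 11 and 3 with library totals, and 3 and 2 without the filter. Over all genes 1454 were higher and 1388 lower, against 186 to 2450 and 106 to 2454 when a library was left out and 809 and 707 without the filter, which tests 25810 genes. Library totals moved the split from 51.2% of calls higher to 65.3% (1924 higher, 1024 lower) and the median log2 difference of all genes from 0.01 to 0.09. The labels do not say that a replicate number is shared between strains, and deviations of same-numbered libraries correlated at 0.0172 over tested genes. A correlation over all genes cannot show whether some genes shared a batch, so whether the numbers pair the samples is unknown. With a replicate block 0 genes of the set were higher and 4 lower: Rb1 and Ccne1 moved to edgeR adjusted p = 0.053 and 0.0507, and of the other named genes Rfc1, Chek1, Atm, Stab2 and Epor to 0.0785, 0.0513, 0.0547, 0.0542 and 0.0741. Where 1 library of a strain remains, it is assumed to vary like the other strain. The cause of these shifts was not tested. The mitotic genes, with low counts, have wide intervals.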

Other observations

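Outside the comparisons above, Mcm10, a replication initiation factor, was the most abundant gene of the licensing and origin firing list by counts, with 7340 and 7298 in DBA/2J and 5169 and 5749 in C57BL/6J (152, 132, 106 and 115 CPM; log2 0.36, edgeR adjusted p = 0.0623), and its exons overlap no other symbol. By comparison Mcm7, the helicase subunit with the most counts, had between 624 and 779.

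The stress-induced Gadd45 genes varied within strains. Gadd45g had 2155 and 148 counts in DBA/2J and 4927 and 554 in C57BL/6J, Gadd45b 15 and 72 against 669 and 124, and Gadd45a 217 and 252 against 1116 and 240. In both strains replicate 1 held the higher Gadd45g count, and none of these genes was called (edgeR adjusted p = 0.562, 0.0678 and 0.151). These genes were named after their values were seen.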
